A study of Mus musculus with 5 samples.

Results

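The genes described here are the ligands and receptors of the tumour necrosis factor (TNF) superfamily. They were taken by name, as every gene symbol made of Tnfsf or Tnfrsf and a number, together with Tnf, Lta, Ltb, Fas, Fasl, Cd40, Cd40lg, Cd27, Cd70 and Ltbr. The arrays measured 39 of them, 15 ligands and 24 receptors, among 16504 named genes. Each was measured by 1 probe except the death receptor Tnfrsf21, which had 2. The reference gene table holds 42 genes that meet the rule, and the other 3, Tnfsf15, Tnfsf18 and Tnfsf13os, are not analysed here.

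The samples were whole thymus of ZAS3-null mice and of wild-type littermates, 6 to 8 weeks old and matched for sex and age. The Hivep3 gene encodes ZAS3, a zinc finger protein of large size that recognises kappaB-like DNA and acts in NF-kB signalling. Each of 5 two-colour arrays paired the RNA of a ZAS3-null thymus with that of a wild-type thymus, so every value is a log2 ratio between both genotypes and the 5 ratios form 1 group. The sources used here give neither the strain background nor the part of the gene that was deleted. The sample labels name whole thymus, which holds epithelium, B cells and myeloid cells beside the T cells, whereas the design text names thymocytes. Going by the sample titles and channel order, positive ratios are likely those with more RNA in ZAS3-null thymus. The design text gives the dyes the other way round, so the direction is not settled and values are given as positive or negative. No array had swapped dyes, so dye and genotype cannot be told apart in any of these values. A ratio carries no level, so the presence of tissue markers could not be checked, and fewer cells of a type and less RNA per cell cannot be told apart.

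Ligands of the superfamily are mostly membrane proteins that act as trimers on a neighbouring cell. Their receptors signal through TRAF adaptors to NF-kB and JNK, and those with a death domain can also start apoptosis through caspase 8. In the thymus, RANK (Tnfrsf11a), CD40 and the lymphotoxin beta receptor (Ltbr) on epithelial cells receive ligands from developing T cells and drive growth and maturation of the medulla. Other members costimulate T cells, keep B cells alive, or bind ligand without signalling.

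Several members lie side by side in the genome, and upstream sequences are shown for the lymphotoxin and TNF neighbours, for Tnfrsf23, whose ratio as deposited had the smallest p of the members, and for Tnfrsf8, since it and Ltb carry the kappaB match. In the reference gene order no protein-coding gene separates Ltb, Tnf and Lta. The same holds for the TRAIL receptor cluster of Tnfrsf26, Tnfrsf22 and Tnfrsf23 and for Tnfrsf1b and Tnfrsf8. The sequences are the 250 bases before the gene start in RefSeq, build GRCm38.p6, written 5′ to 3′ on the gene's strand. Their places are chr17:35205352-35205601 (minus strand) for Lta, chr17:35202008-35202257 (minus) for Tnf, chr17:35194257-35194506 (plus) for Ltb, chr7:143685876-143686125 (minus) for Tnfrsf23 and chr4:145315165-145315414 (minus) for Tnfrsf8. Capitals mark a TATAAA match in Lta, Tnf and, on the opposite strand, Tnfrsf23. They also mark a match to the kappaB consensus in Ltb, on the opposite strand, and in Tnfrsf8, on both strands. The TATAAA match begins 167 bases before the gene start in Lta, 29 in Tnf and 158 in Tnfrsf23.
Lta: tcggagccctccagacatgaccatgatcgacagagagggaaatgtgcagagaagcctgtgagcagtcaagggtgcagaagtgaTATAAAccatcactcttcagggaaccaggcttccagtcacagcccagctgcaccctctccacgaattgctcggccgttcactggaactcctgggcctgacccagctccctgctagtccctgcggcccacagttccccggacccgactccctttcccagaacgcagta
Tnf: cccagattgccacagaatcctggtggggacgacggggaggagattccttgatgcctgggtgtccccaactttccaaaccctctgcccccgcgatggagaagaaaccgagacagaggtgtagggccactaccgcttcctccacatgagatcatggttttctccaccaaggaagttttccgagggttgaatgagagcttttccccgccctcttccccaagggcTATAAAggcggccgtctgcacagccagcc
Ltb: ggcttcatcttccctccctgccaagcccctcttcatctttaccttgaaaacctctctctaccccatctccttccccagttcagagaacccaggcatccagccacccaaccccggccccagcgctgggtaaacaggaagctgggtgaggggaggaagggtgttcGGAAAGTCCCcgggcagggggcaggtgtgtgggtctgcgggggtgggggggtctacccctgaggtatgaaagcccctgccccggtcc
Tnfrsf23: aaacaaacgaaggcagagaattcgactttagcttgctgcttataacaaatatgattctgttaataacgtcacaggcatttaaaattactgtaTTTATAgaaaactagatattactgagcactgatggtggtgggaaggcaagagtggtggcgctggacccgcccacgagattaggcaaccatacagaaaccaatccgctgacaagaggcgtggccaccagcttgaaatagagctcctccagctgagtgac
Tnfrsf8: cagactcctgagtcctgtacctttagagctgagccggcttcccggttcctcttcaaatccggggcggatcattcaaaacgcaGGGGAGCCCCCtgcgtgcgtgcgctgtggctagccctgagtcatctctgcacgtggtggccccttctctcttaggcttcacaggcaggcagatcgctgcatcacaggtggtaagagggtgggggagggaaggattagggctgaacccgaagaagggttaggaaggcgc

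A sequence of this kind was found for 29 of the 39 members, among 27025 genes. The kappaB consensus, searched on both strands, matched in 2 of the 29 (6.90%) and in 7.01% of all genes. In Tnfrsf8 its 2 matches overlap by all but 1 base and are read on both strands. TATAAA, also on both strands, was present in 5 of the 29 (17.2%; Lta, Tnf, Tnfrsf17, Tnfrsf23 and the RANK ligand Tnfsf11) and in 13.0% of all genes. CACAGTG, a heptamer of the recombination signal that ZAS3 is also known to bind, was in 0 of 29 windows and in 5.48% of all. No match of these motifs overlapped one of another. These are matches of letters, not measured sites.

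The log2 ratios carry a trend across the slide that every array shares, and each result below is therefore given as deposited and after subtraction of a local median taken over 21 by 21 spots (position corrected). On the 5 arrays the first 10 columns had medians between -0.25 and -0.11 and the last 10 between 0.23 and 0.31. Gene names rest on an order of the probes recovered from the data, in which 0 of the 256 spots below -1.5 on all arrays fall on a named gene, whereas under the deposited numbers most of them do. The targeted gene, Hivep3, had a mean of 0.08 (limma adjusted p = 0.370) and 0.17 after correction (0.141). Its probes may lie outside the deleted part, so they do not settle the direction.

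As deposited, 8 of the 39 members differed from 0 past a limma adjusted p of 0.05, 4 with positive and 4 with negative ratios. The positive ones were Lta, the decoy receptor Tnfrsf23, the B cell receptor Tnfrsf13b (TACI) and the TWEAK receptor Tnfrsf12a. The negative ones were Tnfsf13 (APRIL), Cd40, Tnfrsf14 (HVEM) and Fas. Over all 16504 genes, 24.8% were called (12.0% positive and 12.9% negative), and the members' share was 20.5%. After position correction 1 member was called, Cd40, on the negative side, where 2.30% of all genes were called negative, 0.612% positive and 2.91% either way. Without adjustment, 5 members were positive and 8 negative at p under 0.05 as deposited (40.3% of all genes either way), and 6 positive and 2 negative after correction (27.0%). The median mean ratio of the members was -0.03 as deposited, and that of all genes was also -0.03.

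The members split about evenly by sign. As deposited 18 had means above 0 and 21 below, and after correction 20 and 19. The median was -0.16 for the 15 ligands and -0.01 for the 24 receptors as deposited, and -0.06 and 0.04 after correction. This difference was not tested. After correction the mean over ligands was below that over receptors on arrays 1 and 2, and above it on arrays 3, 4 and 5. The same sign on all 5 arrays was seen for 12 members as deposited (37.2% of all genes) and for 5 after correction (26.1%). These 5 were Cd40, Tnfrsf13b, Tnfrsf14, Tnfrsf19 and Tnfrsf23.

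**Figure D1:**
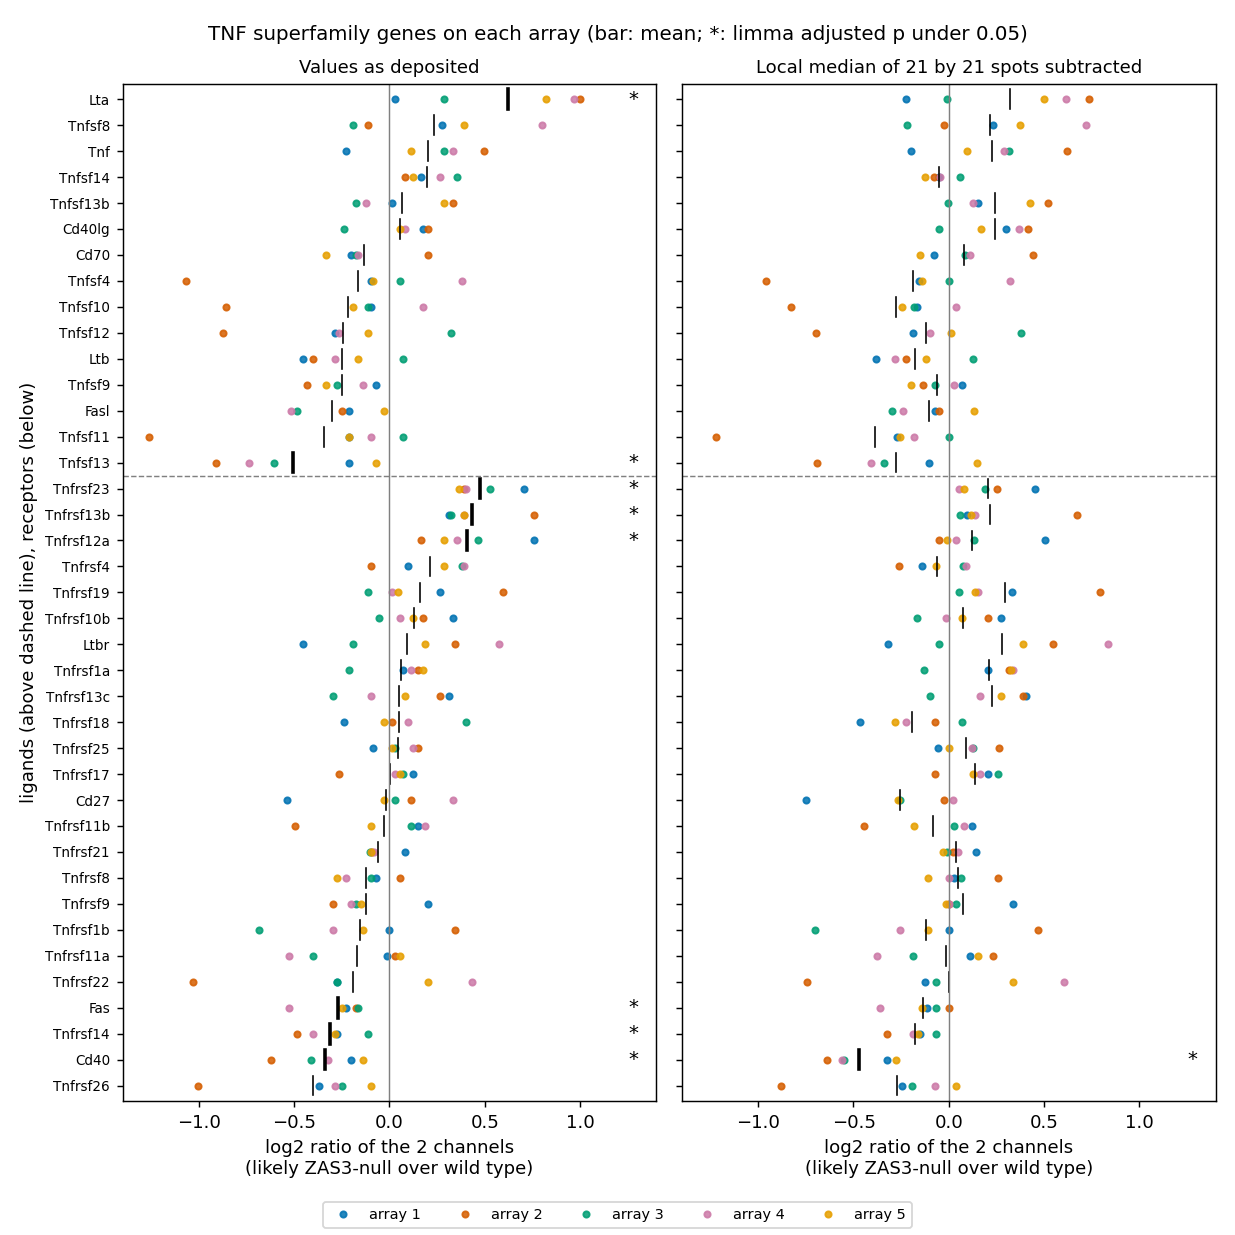
Log2 ratio (horizontal axis) of each TNF superfamily member on each of the 5 arrays (points) with its mean (bar), as deposited on the left and position corrected on the right; an asterisk marks a limma adjusted p under 0.05. Most members straddle 0. Cd40 lies below 0 on all 5 arrays in both sets of values, with means of -0.34 and -0.47.

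The design text asks for 1.5-fold in 1 direction on at least 4 of 5 arrays. No member met this count as deposited or after correction, where 0.866% and 0.242% of all genes did (0.406% positive and 0.460% negative as deposited, 0.0485% and 0.194% after correction). On 3 of 5 arrays as deposited, Lta did so with positive and Tnfsf13 with negative ratios. After correction Lta passed 1.5-fold on 2 arrays, and no other member did so on more than 1 in the same direction.

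Where a member sat on the slide went with its sign. As deposited, the 4 positive calls lay in the last columns of the slide, from 87 on, and 3 of the 4 negative calls, Tnfrsf14, Tnfsf13 and Fas, lay in columns 17, 22 and 27. Cd40 was the exception, a negative call in column 78, where its surroundings had a median of 0.13. Over the 38 members with 1 probe, the Spearman correlation of mean ratio and column was 0.43 as deposited and -0.09 after correction. Over all 15311 named genes with 1 probe it was 0.60 and 0.03. These are descriptions across genes that share the arrays and their trend.

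**Figure D2:**
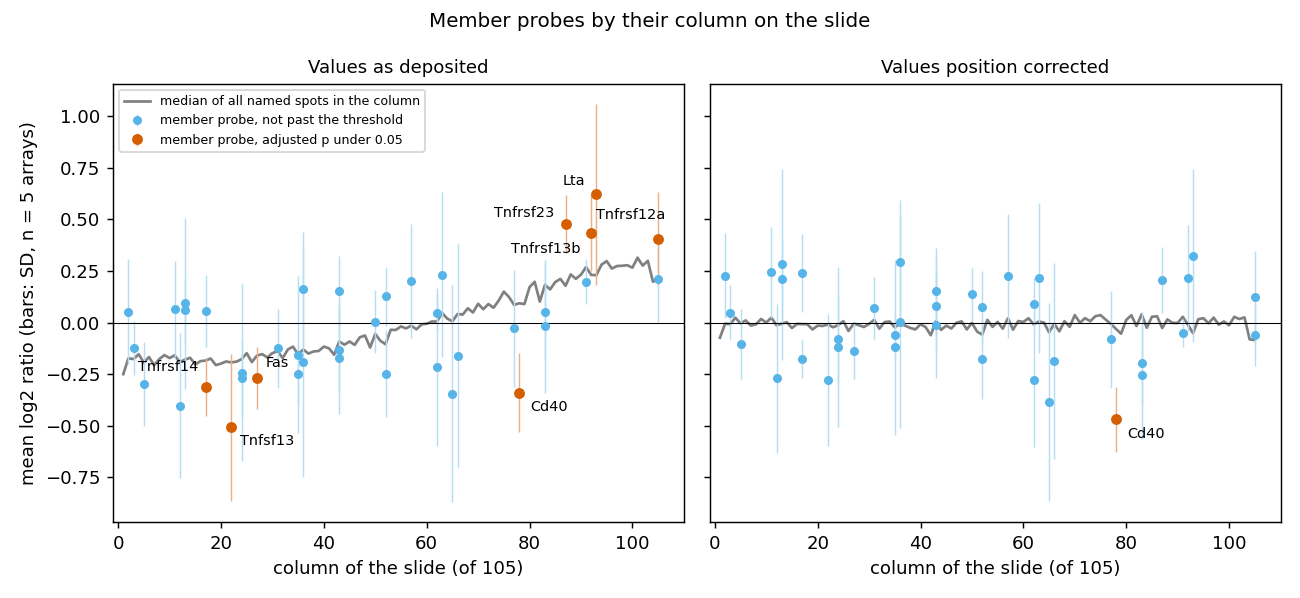
Mean log2 ratio (5 arrays) of the TNF superfamily members against their column on the slide, as deposited and position corrected, with the column medians of all named spots (line) and the SD over 5 arrays (bars). As deposited the members follow the rise from left to right, and Cd40, in column 78, lies below it.

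Cd40, the receptor through which T cells license B cells, dendritic cells and thymic epithelium, was the member that differed from 0 in both sets of values. Its log2 ratios on arrays 1 to 5 were -0.20, -0.62, -0.41, -0.32 and -0.14 as deposited, and -0.33, -0.64, -0.55, -0.56 and -0.28 after correction. All 5 arrays were negative, with array 2 lowest and array 5 nearest 0. The means were -0.34 ± 0.19 (SD, n = 5; limma adjusted p = 0.0333) and -0.47 ± 0.16 (adjusted p = 0.0290), a change of 1.26-fold and 1.38-fold. The 95% interval of the corrected mean ran from -0.65 to -0.29. In both sets of values the call held without array 2 and was lost without array 1, 3, 4 or 5, with adjusted p up to 0.0974 as deposited and 0.130 after correction. When column and row medians were subtracted instead of the local median, the adjusted p was 0.0518.

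Its ligand Cd40lg, which activated and newly positively selected T cells display, did not pass. It had 0.18, 0.20, -0.24, 0.08 and 0.06 as deposited, and 0.30, 0.42, -0.05, 0.37 and 0.17 after correction. Array 3 stood below 0 and the other arrays above it. The means were 0.06 ± 0.18 (adjusted p = 0.635) and 0.24 ± 0.19 (adjusted p = 0.132), so ligand and receptor had opposite signs.

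Markers of the cells known to carry CD40 differed in sign between lists. Of 8 B cell markers, 4 were called positive and 1 negative as deposited (62.5%, where 24.8% of all genes were called). After correction limma called 0 (2.91% of all genes), 4 were positive and 0 negative at an unadjusted p under 0.05 (50.0%; 27.0% of all genes), and their median was 0.18. Cd79a and Ms4a1, which define B cells, had 0.29 ± 0.29 and 0.34 ± 0.20 after correction. Cd22 and Cr2, which mature B cells also carry, were the 2 B cell markers with negative means, -0.11 ± 0.05 and -0.07 ± 0.15 after correction, and Cd22 was negative on all 5 arrays and called as deposited. Of 8 macrophage and dendritic cell markers, 1 was called positive and 2 negative as deposited (37.5%) and 0 after correction with limma (1 and 2 unadjusted). After correction 6 of these 8 had means below 0, with a median of -0.07. The macrophage genes Lyz2 and Mrc1 were negative on all 5 arrays (-0.56 ± 0.33 and -0.31 ± 0.18). Adgre1 and Flt3 had the 2 means above 0 (0.14 ± 0.13 and 0.33 ± 0.32), and Flt3 was the positive call as deposited. Of 9 thymic epithelium markers (22.2% called as deposited, 11.1% after correction), Foxn1, the transcription factor that thymic epithelium requires, was called positive in both sets, with 0.56 ± 0.16 after correction, and the chemokine Ccl25 negative as deposited.

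On arrays 1 to 5 the corrected medians of the macrophage and dendritic cell markers were -0.18, -0.14, -0.0034, -0.02 and -0.08, all below 0. Their corrected means were -0.18, -0.25, 0.05, -0.01 and -0.10, with array 3 above 0. The corrected medians of the thymic epithelium markers were -0.06, 0.01, 0.21, 0.07 and -0.08, on both sides of 0. Those of the B cell markers were 0.14, 0.21, 0.14, 0.08 and 0.25, all above 0. Of 11 T cell markers, 2 were called positive and 4 negative as deposited (54.5%) and 0 after correction with limma, when 1 was positive and 6 were negative at an unadjusted p under 0.05 (63.6%; median -0.21). The part of these cell types in the ratio of Cd40 was not tested.

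**Figure D3:**
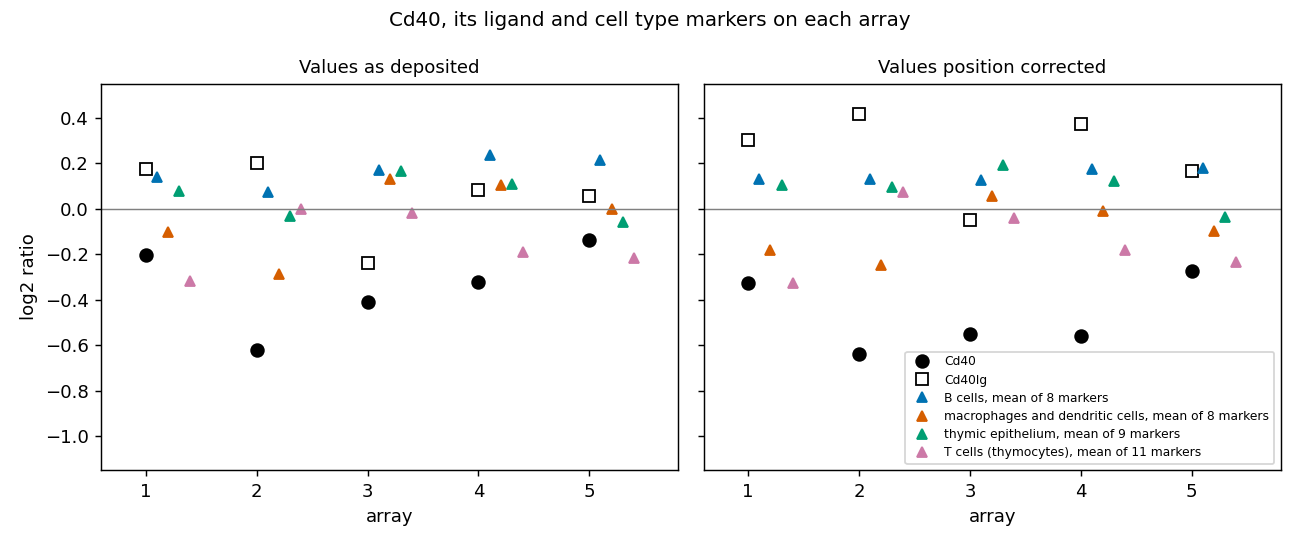
Log2 ratios (vertical axis) of Cd40, its ligand Cd40lg and the means of 4 cell type marker lists on each of the 5 arrays (horizontal axis), as deposited on the left and position corrected on the right. After correction Cd40 lies between -0.64 and -0.28, the mean of the macrophage and dendritic cell markers between -0.25 and 0.05, and that of the B cell markers between 0.13 and 0.18.

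The receptors and ligands of medullary epithelium were mixed in sign. Of the 9 genes listed for it, Lta was called positive and Cd40 negative as deposited (22.2%; 24.8% of all genes), and Cd40 alone after correction (11.1%; 2.91%), when 3 means were above 0 and 6 below. RANK (Tnfrsf11a), the main inducer of Aire-expressing epithelium, had means of -0.17 ± 0.27 and -0.01 ± 0.26. Its ligand Tnfsf11 had -0.21, -1.26, 0.07, -0.10 and -0.21 as deposited. Array 2 was far below the rest. The mean of -0.34 ± 0.53 did not pass (adjusted p = 0.228), nor did -0.39 ± 0.48 after correction (0.202). Osteoprotegerin (Tnfrsf11b), the soluble decoy of that ligand, had -0.03 ± 0.28 and -0.08 ± 0.24. Ltbr, the lymphotoxin beta receptor, ranged from -0.45 on array 1 to 0.58 on array 4 as deposited, with means of 0.09 ± 0.41 and 0.28 ± 0.46.

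Of 9 measured genes that medullary epithelium makes or needs, 0 were called positive and Fezf2, a regulator of tissue antigens, was called negative as deposited (-0.36 ± 0.14), a share of 11.1% against 24.8% of all genes. After correction 0 were called with limma, and 1 was positive and 2 negative at an unadjusted p under 0.05 (33.3%; 27.0% of all genes). As deposited, 2 were positive and 1 negative at an unadjusted p under 0.05 (33.3%, with 40.3% of all genes). In both sets of values 4 means were above 0 and 5 below. Aire had -0.16 as deposited and -0.01 after correction. Ccl19 had the highest means of these genes, 0.76 ± 0.65 and 0.45 ± 0.61. Cd80 was positive on all 5 arrays in both sets, with 0.20 ± 0.11 and 0.15 ± 0.14. Ccl22 had the lowest corrected mean of these genes, -0.33 ± 0.17 (limma adjusted p = 0.0665), and was negative on all 5 arrays after correction. As deposited it had -0.07 ± 0.14.

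Lymphotoxin alpha, Tnf and lymphotoxin beta, whose upstream sequences are given above, had different signs as deposited although they are neighbours. Lta, a secreted trimer that also forms membrane complexes with Ltb, had 0.03, 1.00, 0.29, 0.97 and 0.82 on arrays 1 to 5. Arrays 2, 4 and 5 were high and array 1 was near 0. Its mean of 0.62 ± 0.44 was the largest of any member and passed (adjusted p = 0.0371). Its spot lay in column 93, and after correction it had -0.22, 0.74, -0.01, 0.61 and 0.50, with a mean of 0.32 ± 0.42 (adjusted p = 0.221). As deposited the call was lost without array 2, 3, 4 or 5 (highest adjusted p 0.124).

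Tnf, the founding inflammatory cytokine, was below 0 on array 1 (-0.23) and above 0 on arrays 2 to 5 (0.11 to 0.50), with means of 0.20 ± 0.28 and 0.23 ± 0.30. Ltb, which anchors lymphotoxin in the membrane, had -0.45, -0.40, 0.07, -0.29 and -0.16 as deposited. Array 3 alone was above 0. Its means were -0.25 ± 0.21 (adjusted p = 0.0920) and -0.18 ± 0.19 (0.232). The receptor Tnfrsf1a, which binds Tnf and Lta and carries a death domain, had 0.07, 0.15, -0.21, 0.11 and 0.18 as deposited, with array 3 apart from the rest. Its means were 0.06 ± 0.16 and 0.21 ± 0.20 (adjusted p = 0.597 and 0.176). Tnfrsf1b, the other receptor of both ligands, had 0.00, 0.34, -0.69, -0.30 and -0.14 as deposited, highest on array 2 and lowest on array 3, and averaged -0.16 ± 0.38.

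Among the B cell members, the receptors and the ligands APRIL and BAFF did not share a sign. Tnfrsf13b (TACI) had 0.31, 0.76, 0.32, 0.39 and 0.39 as deposited. All arrays were positive, with array 2 well above the other 4. The mean was 0.43 ± 0.18 (adjusted p = 0.0154), and 0.22 ± 0.26 after correction (0.225), with 0.67 on array 2 and 0.06 to 0.14 on the rest. Its call as deposited was lost without array 4 or 5 (highest adjusted p 0.0632).

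APRIL (Tnfsf13), a ligand of TACI and of the plasma cell receptor BCMA (Tnfrsf17), had -0.21, -0.91, -0.60, -0.74 and -0.07 as deposited. Arrays 2, 3 and 4 were low, and arrays 1 and 5 were nearer 0. The mean was -0.51 ± 0.35 (adjusted p = 0.0391). After correction it had -0.10, -0.69, -0.34, -0.41 and 0.15, with a mean of -0.28 ± 0.32 (0.195). As deposited the call was lost with any 1 of the 5 arrays left out (adjusted p 0.0542 to 0.125) and with array weights (0.0597).

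BAFF (Tnfsf13b), the survival factor of mature B cells, had 0.01, 0.33, -0.18, -0.12 and 0.29 as deposited, with arrays on both sides of 0. Its means were 0.07 ± 0.23 and 0.24 ± 0.22 (adjusted p = 0.637 and 0.155). Its receptor Tnfrsf13c had 0.05 ± 0.25 and 0.23 ± 0.21 (adjusted p = 0.733 and 0.161). Tnfrsf17 had 0.12, -0.26, 0.07, 0.03 and 0.06 as deposited, with array 2 alone below 0, and means of 0.00 ± 0.15 and 0.14 ± 0.13. The B cell markers given above, positive in median in both sets of values, were measured in the same RNA as these members. Their part in these ratios was not tested.

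Fas was the called member among 5 death domain receptors as deposited, where 24.8% of all genes were called, and after correction limma called 0 of them (1 at an unadjusted p under 0.05). Fas, which triggers apoptosis of activated lymphocytes, had -0.23, -0.18, -0.16, -0.53 and -0.25. All arrays were negative and array 4 was lowest. Its mean was -0.27 ± 0.15 (adjusted p = 0.0432), and -0.14 ± 0.14 after correction (0.261). As deposited the call was lost without array 1, 3, 4 or 5 (highest adjusted p 0.128) and with median centring (0.0645).

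Fasl, the ligand of Fas on cytotoxic cells, had -0.21, -0.25, -0.49, -0.52 and -0.03. It too was negative on every array as deposited. The mean of -0.30 ± 0.20 just missed the threshold (adjusted p = 0.0524), and after correction it was -0.10 ± 0.17 (0.422). Fas and Fasl lay in columns 27 and 5, where neighbouring spots are negative as well. Tnfrsf1a, given above, had the largest corrected mean of the death domain receptors (0.21, unadjusted p = 0.0475), and the other 3 had means within 0.13 of 0. Tnfrsf10b, the mouse TRAIL receptor that can kill, had 0.13 ± 0.14 and 0.07 ± 0.18. Tnfrsf25 (DR3) had 0.05 ± 0.09 and 0.09 ± 0.12. Tnfrsf21 (DR6) had -0.06 ± 0.08 and 0.04 ± 0.07, but its 2 probes disagreed, with -0.27 in column 24 and 0.15 in column 43 as deposited, and -0.08 and 0.15 after correction.

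The adjacent receptors Tnfrsf26, Tnfrsf22 and Tnfrsf23 did not share a sign as deposited. Tnfrsf23, a decoy that binds TRAIL without a death domain, had 0.70, 0.39, 0.53, 0.40 and 0.37 as deposited. All arrays were well above 0, with array 1 highest. Its mean of 0.48 ± 0.14 had the smallest adjusted p of the members (0.00892), and its call was kept with each array left out (up to 0.0433). After correction it had 0.45, 0.25, 0.19, 0.06 and 0.08, a mean of 0.21 ± 0.16, and did not pass (0.147). Its spot lay in column 87, among spots with a median of 0.27.

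Tnfrsf22, also a TRAIL decoy, had -0.28, -1.03, -0.28, 0.43 and 0.20 as deposited. Arrays 1 to 3 lay below 0 and arrays 4 and 5 above it. Its means were -0.19 ± 0.56 and 0.00 ± 0.51 (adjusted p = 0.521 and 0.996), with the largest SD of any member. Tnfrsf26 was negative on all arrays as deposited, from -1.01 on array 2 to -0.10 on array 5, with a mean of -0.40 ± 0.35 (adjusted p = 0.0721) and -0.27 ± 0.36 after correction (0.240). TRAIL itself (Tnfsf10), a ligand that kills some transformed and activated cells, had -0.10, -0.86, -0.11, 0.18 and -0.19. Array 2 again was far below the rest, and the means were -0.22 ± 0.38 and -0.28 ± 0.33 (adjusted p = 0.308 and 0.203).

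Of 7 receptors that costimulate T cells, 1 was called as deposited (14.3%; 24.8% of all genes) and 0 after correction, when 1 had an unadjusted p under 0.05 (14.3%; 27.0% of all genes). That one was Tnfrsf14 (HVEM), which binds LIGHT and Lta as well as the inhibitory receptor BTLA. It had -0.28, -0.49, -0.11, -0.40 and -0.29 as deposited, and -0.15, -0.32, -0.07, -0.19 and -0.16 after correction. All arrays were negative in both sets, with array 2 lowest and array 3 nearest 0. Its means were -0.31 ± 0.14 (adjusted p = 0.0266) and -0.18 ± 0.09 (0.133). As deposited the call was lost without array 1, 4 or 5 (up to 0.0934).

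Its ligand Tnfsf14 (LIGHT), which also binds Ltbr, had 0.16, 0.08, 0.36, 0.26 and 0.12 as deposited, all positive. After correction it had -0.05, -0.08, 0.06, -0.05 and -0.13, all near 0. The means were 0.20 ± 0.11 (adjusted p = 0.0701) and -0.05 ± 0.07 (0.605), so its sign turned with the correction. Lta, the other ligand of Tnfrsf14, is given above.

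None of the other costimulatory pairs passed. Cd27, which supports survival of primed T cells, ranged from -0.54 on array 1 to 0.33 on array 4 as deposited and averaged -0.02 ± 0.32, or -0.26 ± 0.31 after correction. Its ligand Cd70 had -0.13 ± 0.20 and 0.08 ± 0.23. OX40 (Tnfrsf4) and GITR (Tnfrsf18), adjacent genes expressed on regulatory T cells, had 0.21 ± 0.21 and 0.05 ± 0.23 as deposited. Both lay at the right of the slide, the last column and column 83, and had -0.06 ± 0.15 and -0.19 ± 0.20 after correction. The OX40 ligand Tnfsf4 had -1.07 on array 2 and 0.38 on array 4, and its mean was -0.16 ± 0.54. CD30 (Tnfrsf8) had -0.12 ± 0.13 and 0.05 ± 0.13, and its ligand Tnfsf8 had 0.23 ± 0.40 and 0.22 ± 0.36, highest on array 4 (0.80 as deposited). 4-1BB (Tnfrsf9) had -0.13 ± 0.19 and 0.07 ± 0.15, and its ligand Tnfsf9 was negative on all arrays as deposited (-0.25 ± 0.15; adjusted p = 0.0518) and averaged -0.06 ± 0.11 after correction.

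The TWEAK receptor Tnfrsf12a, which is induced in injured epithelium and stroma, had 0.76, 0.16, 0.46, 0.36 and 0.29 as deposited. All arrays were positive, with array 1 highest. Its spot was in the last column, and after correction it had 0.51, -0.05, 0.13, 0.04 and -0.01, so that array 1 alone stood clear of 0. The means were 0.41 ± 0.22 (adjusted p = 0.0271) and 0.12 ± 0.22 (0.424), and as deposited the call was lost without array 1, 3, 4 or 5 (up to 0.0806).

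TWEAK (Tnfsf12), a neighbour of Tnfsf13 in the genome, had -0.29, -0.87, 0.32, -0.26 and -0.11. Array 3 alone was positive and array 2 far below the others. The means were -0.24 ± 0.43 and -0.12 ± 0.39 (adjusted p = 0.298 and 0.611). Tnfrsf19 (TROY), a receptor best known from epithelial stem cells and the nervous system, had 0.16 ± 0.28 as deposited and 0.29 ± 0.30 after correction (adjusted p = 0.320 and 0.162), highest on array 2.

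Array 2 held the widest spread of the members. On it 11 of the 39 passed 1.5-fold as deposited (28.2%), 3 positive and 8 negative, where 17.6% of all genes did. The lowest were Tnfsf11, Tnfsf4, Tnfrsf22 and Tnfrsf26, all at -1.01 or below. On the other arrays 1 to 3 members passed 1.5-fold. The SD over members on array 2 was 0.54, and that over all genes was 0.49. On array 5 the corresponding values were 0.24 and 0.33.

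The number of members called changed with the array left out. These fits hold fewer samples, and the share of all genes called in them is not given here. Leaving out arrays 1 to 5 in turn, the members called as deposited numbered 3, 9, 4, 1 and 1. After correction it was 1 without array 2 and 0 without any other array. Tnfrsf23 was the member called as deposited with each array left out.

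**Figure D4:**
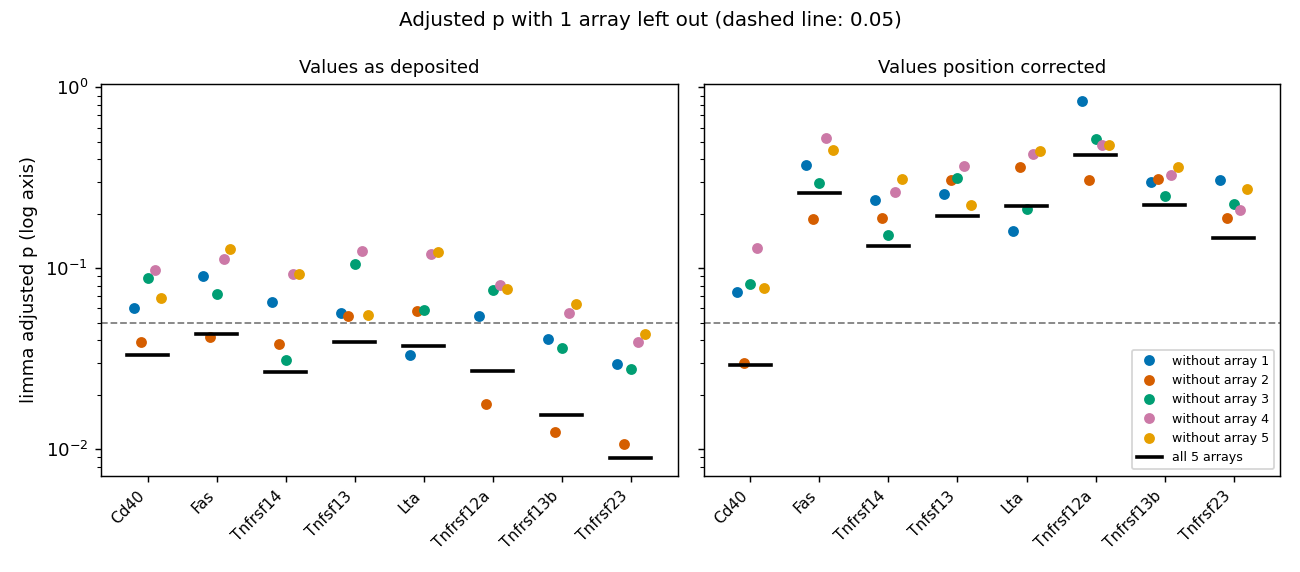
Adjusted p (limma; log axis) of the 8 members called as deposited, with all 5 arrays and with each array left out, in both sets of values, against the threshold of 0.05. As deposited, Tnfrsf23 stays under 0.05 throughout, and after correction Cd40 does so with all arrays and without array 2.

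Ligand and receptor ratios were also set side by side over 25 known pairs. In 13 pairs as deposited and 14 after correction the signs were opposite. Pairs share members, so these counts are a description.

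Among the signalling proteins below the receptors, the share called was about that of all genes, with more negative than positive calls. The 31 measured genes included adaptors, kinases, caspase 8, NF-kB subunits and subunits of ubiquitin complexes. Of these 31, 1 was called positive and 7 negative as deposited (25.8%, where 24.8% of all genes were called either way and 12.9% negative). After correction 1 was called (3.23%; 2.91% of all genes), with 1 positive and 8 negative at an unadjusted p under 0.05 (29.0%; 27.0% of all genes). Their medians were -0.10 and -0.06, and those of all genes -0.03 and -0.01. These differences from all genes were not tested. The 7 negative calls as deposited had their probes in columns 5 to 50 of the slide. In columns 1 to 35, 25.6% of all named genes with 1 probe were called negative as deposited and 0.292% positive. In columns 36 to 70 these shares were 12.3% and 4.70%. Birc2, Cyld and Mapk8, among the 7, have several probes, and these shares do not cover such genes. The gene called after correction was Rbck1 (HOIL-1), a subunit of the complex that builds linear ubiquitin chains on TNF receptor signalling proteins. Its mean was -0.54 ± 0.10 in the deposited values (adjusted p = 0.00464) and -0.36 ± 0.06 in the corrected ones (0.0261), negative on all 5 arrays. Rbck1 lost its corrected call without array 1, 3, 4 or 5 (highest adjusted p 0.150), and as deposited kept it with each array left out (up to 0.0352). Relb, the noncanonical NF-kB subunit that acts below CD40, RANK and Ltbr, had 0.45 ± 0.07 in column 93 (adjusted p = 0.00602) and 0.19 ± 0.11 after correction (0.130).

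Of 19 measured genes that TNF and NF-kB induce, 3 were called positive and 4 negative as deposited (36.8%; 24.8% of all genes). After correction 1 was called (5.26%; 2.91% of all genes), the chemokine gene Ccl20, negative with -0.67 ± 0.24 (adjusted p = 0.0203) and -0.38 ± 0.26 as deposited (0.0433). Without array 1, 3 or 4 its corrected call was lost (highest adjusted p 0.103), and its call as deposited with any 1 array left out (up to 0.116). Of the 5 superfamily genes not named by the rule, the ectodysplasin genes Eda, Edar and Eda2r, the nerve growth factor receptor Ngfr and Relt, limma called 0, and at an unadjusted p under 0.05 there were also 0, in both sets of values.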

How the data were processed

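The authors deposited 1 log2 ratio of the channels per spot and array. The design text names GenePix for image reading and GeneTraffic for lowess normalization. Base 2 was inferred from the values, since 100% were, to within 6e-05, logarithms of folds rounded to 2 decimals. Spot brightness was not analysed here, and precision is limited by the 5 arrays. The table holds 22575 spots. Annotation numbers were matched to values with rows and columns of the slide exchanged, an order chosen after the data were seen. Probes of 1 gene correlated at 0.11 over 1407 pairs with it and at 0.03 with the deposited numbers, and for 48 genes with at least 10 spots the intraclass correlation was 0.52 against -0.003. Probes of a gene were averaged.

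The mean log2 ratio was tested with limma 3.58.1 in R 4.3.3 (intercept only, eBayes). P-values were adjusted by Benjamini-Hochberg across the whole table, with calls made under 0.05. The labels number the mice of each array separately, so p-values cover animal and technical variation jointly. Position correction subtracted the median of the surrounding 21 by 21 spots, leaving out 256 very low spots. Values are mean ± SD over 5 arrays. The steps were tested on simulated data. Members and gene lists were chosen with earlier results of these data known. Values on each array are given for members past the threshold in either fit and for their ligands or receptors, and those of Ltb, Tnfsf11 and Tnfrsf22 were added after their values were seen. From other lists, genes past the threshold after correction were named. Relb, Fezf2, Aire, Ccl19, Ccl22, Cd80 and marker genes were added after their values were seen. Alternatives were each array left out, centring, scaling, array weights, robust eBayes, other windows and other thresholds. The deposited probe numbers and the probe with the largest absolute mean were also tried. Upstream sequences are from RefSeq.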

Additional observations from a re-analysis of the deposited data

Results flagged for a closer look

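Of the 39 members in 2 sets of values, 10 sets of 5 ratios had an array that stood apart from the other 4 by Dixon's test at the 95% level, 6 as deposited and 4 after position correction. The nominal rate of the test is about 1 set in 20. The share of all genes it flags is not given here, so no excess among members can be read from the count. Tnfsf11, Tnfrsf13b and Tnfrsf1a were flagged in both sets of values. Array 2 was the one apart for 3 genes. Tnfsf11 was lowest there, with -1.26 as deposited and -1.22 after correction, where the other arrays lay between -0.21 and 0.07 and between -0.27 and 0.00. Tnfrsf13b was highest there, with 0.76 as deposited and 0.67 after correction, where the other arrays lay between 0.31 and 0.39 and between 0.06 and 0.14. Tnfrsf17 was lowest on array 2 as deposited, with -0.26.

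Tnfrsf1a was lowest on array 3, with -0.21 as deposited and -0.13 after correction, where the others were all positive. Fas was lowest on array 4 as deposited (-0.53). Array 1 was highest for Tnfrsf21 as deposited, with 0.083 over its 2 probes, and for Tnfrsf9 after correction, with 0.34.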

How the results depend on the processing

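With each array left out in turn, the count of members called was 1 to 9 as deposited (8 with all arrays) and 0 to 1 after correction (1 with all arrays). That of pathway genes was 3 to 8 as deposited (8) and 0 to 2 after correction (1), and members past the 1.5-fold rule, with 3 of 4 arrays asked, were 0 to 2 (0). As deposited, 1 member was called at an adjusted p of 0.01 and 13 at 0.1. For the other thresholds and settings in this paragraph, the share of all genes called is not given here. No excess among members or pathway genes can therefore be read from these counts. After correction, 0 members were called at 0.01 and 0 with column and row medians. Corrected pathway calls were 2 with scaling to a common spread and 8 with array weights. The 1.5-fold rule gave 1 member at the lower of the other folds tried, 0 at the higher, and 1 under the deposited probe numbers. Those numbers put the spots of other genes under these names. They gave 15 member calls as deposited and turned the sign of Tnfrsf23 (-0.22), Tnfsf13 (0.40), Birc2 (0.067), Ccl20 (0.032, and 0.24 corrected), Cxcl1 (-0.039), Fezf2 (0.030), Icam1 (-0.10), Ikbkb (0.20), Mapk8 (0.0023), Traf4 (0.039) and corrected Cd40 (0.079). No other setting reversed a called gene. Where a call was lost in a fit of all arrays, the cause was not tested; the fits with 1 array left out hold fewer samples. No paired analysis was possible because the arrays form 1 group, and each already sets a ZAS3-null mouse against a wild-type littermate. A filter on dim spots was not run, since spot brightness was not analysed here.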
